A study of Mus musculus with 2 samples.

Results

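Cxcl2, Ccl5 and Cxcl12, which encode chemokines, and Ccr2, which encodes a chemokine receptor, were followed in the hippocampus of aged mice with and without surgery. The 4 genes have 5 probes that could be named here, and Cxcl12 has 2 of them, written for different transcripts. They were found by gene symbol among 437 genes with 446 probes. These are the part held here of the study's own list of genes at least 2-fold higher or lower in this contrast. The genes were thus chosen by their surgery-over-control ratios on these same arrays, and the values below are a description. The arrays hold 60930 probes in all, and other chemokine probes that may be among them were not analysed here.

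Chemokines are small secreted proteins that bind to G protein-coupled receptors and guide the movement of cells. Cxcl2 draws neutrophils through the receptor Cxcr2, Ccl5 draws T cells and monocytes, and Ccr2 is the receptor through which inflammatory monocytes follow Ccl2. Cxcl12 acts through Cxcr4, is made without any inflammation by meningeal, vascular and neural cells, and guides the granule cells of the hippocampal dentate gyrus during development.

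The series holds 1 array of a control group and 1 array of a surgery group, all male mice of the C57 background (C57BL/6 by the study's methods) aged 16 to 18 months. The surgery group had undergone unilateral nephrectomy, used to model postoperative cognitive dysfunction (POCD), and its hippocampi were taken on day 3. The operated mice were anaesthetized with ketamine and xylazine and were given local ropivacaine and saline, whereas the control group was not treated, so that anaesthesia, these agents and surgery cannot be told apart in this contrast. In each group the RNA of 3 mice was pooled before hybridization, so the spread between mice is unknown, nothing was tested and no array value has a replicate check here. The spot errors given below are those of the image software for 1 spot. In pooled whole tissue, fewer cells of a type and less RNA per cell cannot be told apart.

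In the surgery pool the signal was higher than in the control pool for Cxcl2, Ccl5, Ccr2 and 1 probe of Cxcl12, and lower for the other probe of Cxcl12. A probe is called detected here where the image software placed it well above background in both pools. Of the 5 probes 4 were detected, with 3 at least 2-fold higher and 1 at least 2-fold lower after surgery, and Cxcl2 passed in the surgery pool alone. Over all 44044 detected probes, 1.47% reached 2-fold higher and 1.95% reached 2-fold lower. Computed from the median instead of the mean of a spot's pixels, these shares were 1.43% and 1.92%. Nothing is read from the count of chemokine probes against these shares, since the same limit chose them.

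The probe sequences show which part of each transcript was read, and they are printed 5′ to 3′ in the strand of the mRNA. The Cxcl2 probe is shown whole, with the stop codon of its reading frame in capitals. The Ccl5 and Ccr2 probes are shown for 30 bases each. In Ccl5 the capitals mark ATTAAA, a common variant of the polyadenylation signal, which 10 of the 446 named probes (2.24%) hold. In Ccr2 the capitals mark 21 bases that also lie just after the annotated start of the gene in the RefSeq mouse assembly GRCm38.p6, beginning 5 bases from it, after which the probe no longer follows the window. In both Cxcl12 probes the capitals mark the 25 bases that they share.
Cxcl2 (NM_009140): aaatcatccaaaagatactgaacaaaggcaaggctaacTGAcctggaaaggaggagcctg
Ccl5 (NM_013653): aatcagcatttcATTAAAatttcagatgca
Cxcl12 (NM_001012477): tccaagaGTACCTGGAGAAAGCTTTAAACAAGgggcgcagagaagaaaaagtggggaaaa
Cxcl12 (NM_021704): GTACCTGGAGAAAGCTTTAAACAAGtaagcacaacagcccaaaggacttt
Ccr2 (NM_009915): ATCATAAAGGAGCCATACCTGtaaatgcca

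All 5 probes are 60 bases long, and their GC content is 40% for Ccl5 and 45% for the others, against a median of 45% and a range of 20% to 81.7% over the 446 named probes. Each probe has 1 spot on each array, and the image software marked none of these spots as non-uniform or as an outlier. By their sequences, the Cxcl2 probe spans the end of the coding region and the Ccl5 probe lies near the end of its transcript, whereas the Ccr2 probe begins close to the start of its gene. The labelling used random primers along the whole length of the transcripts, so probes at either end can be read.

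Cxcl2 (NM_009140, GRCm38.p6 chr5:90903899-90905938) is a CXC chemokine that inflamed tissue releases early and that neutrophils follow. Its processed signal was 17.0 ± 3.85 (spot error, 1 spot) in the control pool, too dim to stand well above background, and 296 ± 37.7 in the surgery pool. After quantile normalization these signals were 16.4 and 315, measured as 19.2-fold higher in the surgery pool at this setting. The measured log2 ratio of 4.26 (spot error 0.38) stands over a control spot that is not well above background, and it was 3.38 in the authors' normalized values, 2.76 from the median pixel over the local background and 2.01 with a normexp background correction. The lowest normalized signal of any spot well above background was 15.7 in the control pool. It lies below the 16.4 of the Cxcl2 spot, so it gives no bound on the fold.

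The raw image of the Cxcl2 spot gave the same direction. The median pixel of the spot was 62 in the control pool and 295 in the surgery pool, whereas the local background next to it was 22 and 21. After removal of the background that the image software had subtracted, estimated here from the surrounding spots, the median pixel was 15.7 and 244, a ratio of 15.5. The mean of the pixels was 1.07 times the median in the control pool and 1.27 times in the surgery pool, so some pixels of the surgery spot were brighter than most. The surgery spot thus passed 1.25 times, the limit used below to call a spot uneven. A mean at least this far above the median was found in 0.646% of the spots well above background on the surgery array.

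Ccl5 (NM_013653, GRCm38.p6 chr11:83525778-83530518) is a CC chemokine that activated T cells, macrophages and glial cells release. Its processed signal was 262 ± 26.4 in the control pool and 499 ± 50.1 in the surgery pool, detected in both. After normalization the signals were 247 and 529, 2.14-fold higher in the surgery pool, with a log2 ratio of 1.10 and a spot error of 0.21. As many as 507 detected probes, or 1.15%, had a ratio at least as high. The excess over 2-fold was 0.48 of the spot error, and without normalization between the arrays the log2 ratio was 0.93, under 2-fold. The median and the mean of the pixels above background were both 258 in the control pool, and 472 and 478 in the surgery pool, so the Ccl5 spots were even.

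Cxcl12 (GRCm38.p6 chr6:117168535-117181368) is a homeostatic CXC chemokine with 3 coding transcripts in the RefSeq table. They share the core of the protein and differ at its C-terminal end. NM_021704 encodes the alpha form, whose coding region stops directly after the shared bases printed above, and NM_001012477 encodes the gamma form, which continues with a basic tail. The remaining 35 bases of each probe are its own, so 41.7% of each probe is shared between them.

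The probe of NM_001012477 had a processed signal of 166 ± 17.0 in the control pool and 311 ± 31.4 in the surgery pool. After normalization the signals were 157 and 331, 2.11-fold higher in the surgery pool, with a log2 ratio of 1.08 and a spot error of 0.21. The excess over 2-fold was 0.37 of the spot error, and the log2 ratio was 0.91 when the arrays were not normalized, under 2-fold. The probe of NM_021704 had a processed signal of 294 ± 29.6 in the control pool and 111 ± 11.7 in the surgery pool. The gamma probe was thus brighter after surgery and the alpha probe dimmer, and no spot error spans the gap between the arrays for either. After normalization the alpha probe had signals of 277 and 117, 2.36-fold lower in the surgery pool, with a log2 ratio of -1.24 and a spot error of 0.21.

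The log2 ratios of the 2 Cxcl12 probes differed by 2.32, with a combined spot error of 0.30. A common rescaling of an array cannot move this difference, and it was 2.31 without normalization and 2.36 in the authors' own normalized values. The ratio of the gamma probe was 1.10 when computed from the median pixel, and that of the alpha probe was -1.15. The median pixel, with no background removed, was 194 and 328 for the gamma probe and 334 and 165 for the alpha probe. The authors' normalized values were 5.54 and 6.64 for the gamma probe on the log2 scale, and 6.37 and 5.11 for the alpha probe. Among detected probes 535 (1.21%) were at least as high as the gamma probe and 318 (0.722%) at least as low as the alpha probe. Since 1 spot read each transcript and no probe of the total Cxcl12 RNA was analysed here, a direction for the gene as a whole is not given.

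Ccr2 (NM_009915, GRCm38.p6 chr9:124101918-124109140) is carried by inflammatory monocytes and by some T cells and natural killer cells, and resident microglia are known to lack it. Its processed signal was 27.1 ± 5.02 in the control pool and 109 ± 20.5 in the surgery pool, dim but detected in both. After normalization the signals were 26.2 and 115, 4.39-fold higher in the surgery pool, with a log2 ratio of 2.14 and a spot error of 0.38. The relative spot error was 18.6% in the control pool and 18.8% in the surgery pool, against 10.1% for Ccl5 in the control pool. Of the detected probes 73, or 0.166%, had a ratio as high.

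**Figure D1:**
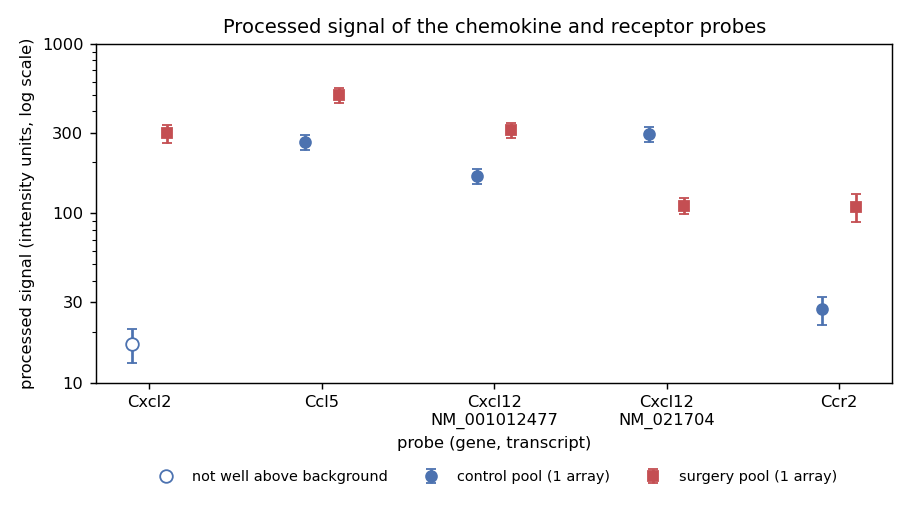
Processed signal of each probe (log scale, intensity units) in the control pool (circles) and the surgery pool (squares), 1 array each, with the spot error of the image software as bars. Cxcl2, Ccl5, Ccr2 and the Cxcl12 probe of NM_001012477 were brighter in the surgery pool, the Cxcl12 probe of NM_021704 was dimmer, and the open circle marks the Cxcl2 spot at 17.0 that was not well above background.

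The spot of Ccr2 was also uneven in the surgery pool. The mean of its pixels was 2.34 times the median there and 1.08 times in the control pool. With the estimated background removed, the median pixel was 24.5 in the control pool and 48.5 in the surgery pool, a ratio of 1.98, whereas the means of the pixels were 26.5 and 114. A mean so far above the median was found in 0.0353% of the spots well above background on the surgery array. One at least 1.25 times the median, called uneven here, was found in 0.707% of them. Taken from the median pixel, the log2 ratio of Ccr2 was 1.11, and 0.61 when the local background of the spot was subtracted instead. The size of the Ccr2 difference therefore rested on which pixels were counted, and the part of the uneven spot in it was not tested further.

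**Figure D2:**
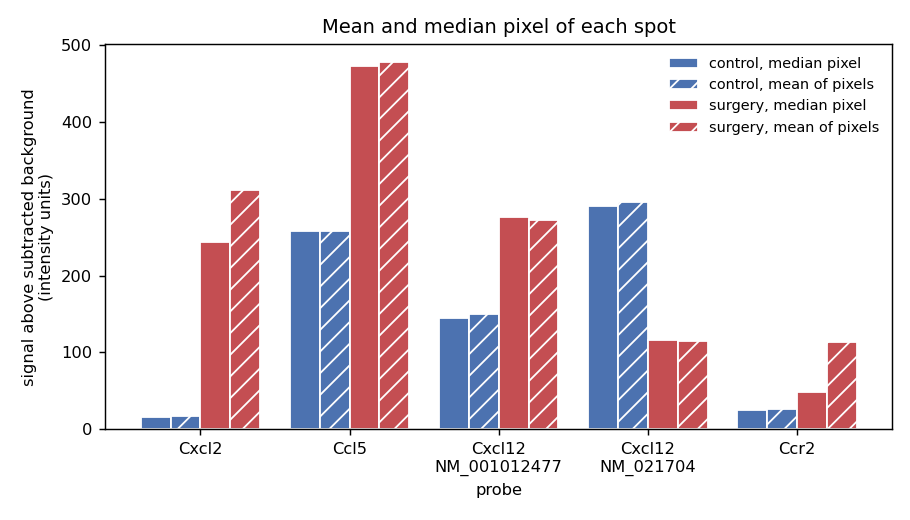
Signal above the subtracted background (intensity units) for each probe as the median pixel (plain bars) and the mean of the pixels (hatched bars) in the control pool (blue) and the surgery pool (red), 1 array each. The 2 measures were nearly equal for Ccl5 and both Cxcl12 probes, while for Ccr2 in the surgery pool they were 48.5 and 114, and for Cxcl2 244 and 311.

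Where a spot lay on the slide moved with these results. The array has 164 columns, and in the last 14 of them 8.4% of detected probes were at least 2-fold higher in the surgery pool, against 0.797% in the other columns. The share at least 2-fold lower was 3.19% in the last 14 columns and 1.83% in the others. The spot of Cxcl2 lay in column 151 and that of Ccr2 in column 156, both within the last 14. Those of Ccl5, of the gamma probe and of the alpha probe of Cxcl12 lay in columns 117, 21 and 76. Uneven spots were also more frequent at that edge, at 4.70% of the spots well above background on the surgery array against 0.296% elsewhere. Counted by spot instead of by probe, 65 of 327 detected spots at least 2-fold higher in the last columns (19.9%) were uneven in the surgery pool. Among all detected spots there, 136 of 3914 (3.47%) were uneven.

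**Figure D3:**
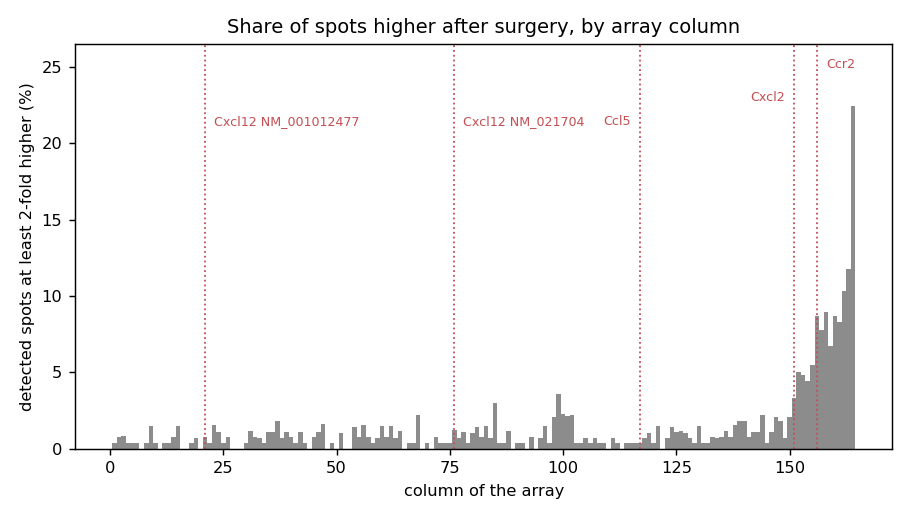
Percent of detected spots at least 2-fold higher in the surgery pool (bars) in each of the 164 columns of the array, with dotted lines at the columns of the 5 probes. Cxcl2 and Ccr2 lay in columns 151 and 156, where the share climbed toward the edge, and the other probes lay in columns with few such spots.

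Each probe was therefore set beside the detected spots within 5 rows and 2 columns of it. Around Cxcl2 there were 43, with a median log2 ratio of -0.12 and a range from -1.48 to 3.00, of which 5 were at least 2-fold higher. Around Ccr2 there were 45, with a median of 0.20 and a range from -0.87 to 2.74, of which 7 were at least 2-fold higher and 1 was above Ccr2. The surroundings of these probes were wide in both cases, and other probes near them were also 2-fold higher.

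Around Ccl5 the 38 nearby spots had a median log2 ratio of 0.09 and ran from -0.70 to 0.56, with none at 2-fold in either direction. Around the gamma probe of Cxcl12 the 37 nearby spots ran from -0.84 to 0.60, again with none at 2-fold. Around the alpha probe the 38 nearby spots ran from -1.02 to 0.73, and all 38 were above that probe. Ccl5 and both Cxcl12 probes thus lay outside the range of their surroundings, and so did Cxcl2, over a control spot not well above background. The members were chosen for passing 2-fold on these arrays and the nearby spots were not, so nothing is read from this. With the nearby median subtracted, the log2 ratios were 4.38 for Cxcl2, 1.004 for Ccl5, 1.93 for Ccr2, and 1.08 and -1.20 for Cxcl12.

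**Figure D4:**
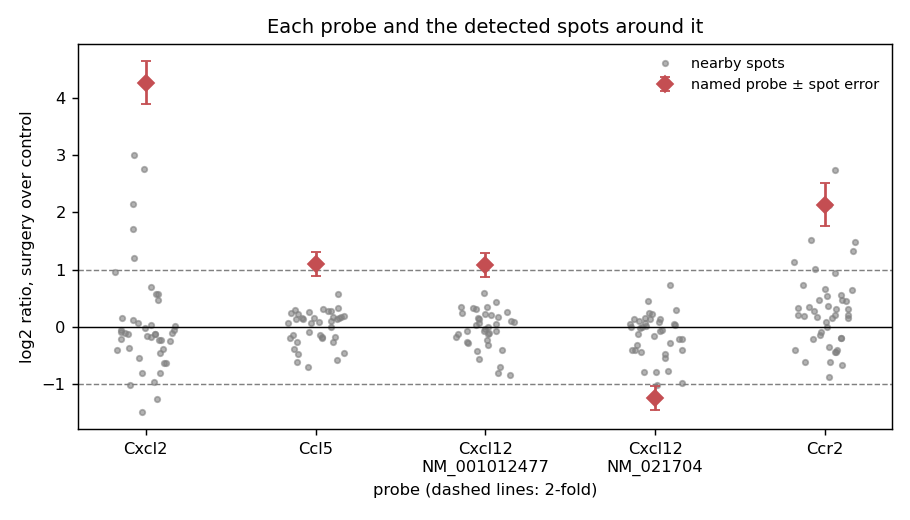
Log2 ratio of surgery over control for each probe (red diamonds, bars show the spot error) and for the detected spots within 5 rows and 2 columns of it (grey points), with dashed lines at 2-fold. Cxcl2, Ccl5 and both Cxcl12 probes lay outside the range of the spots around them, whereas 1 spot near Ccr2 was above it. The named probes were chosen for passing 2-fold and the spots around them were not. The Cxcl2 ratio stands over a control spot not well above background. The spots around Cxcl2 and Ccr2 spread the widest, up to 3.00 and 2.74.

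The processing moved the sizes but turned no direction. The log2 ratio of Cxcl2 ran from 2.01 with a normexp background correction to 4.38 with the nearby median subtracted, above 2-fold under every setting tried. That of Ccr2 ran from 0.38 to 2.18. Ccl5 and the gamma probe of Cxcl12 stayed close to the 2-fold limit, with the lowest values 0.87 and 0.81 under normexp, and the alpha probe ran from -0.85 under normexp to -1.41 without normalization.

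**Figure D5:**
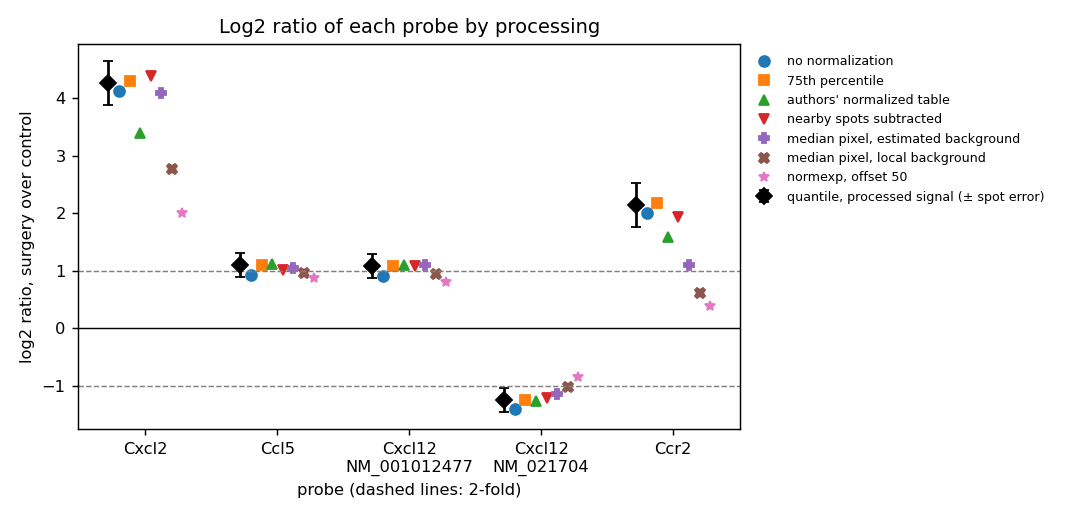
Log2 ratio of surgery over control for each probe under 8 ways of processing the same 2 arrays, with the spot error on the value reported (black diamonds) and dashed lines at 2-fold. Every setting left each probe on its own side of 0, while Cxcl2 and Ccr2 moved the most, down to 2.01 and 0.38 under normexp.

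The promoter was looked at for Cxcl2, which is a textbook target of NF-kappaB. The RefSeq table gave a window from 250 bases before to 50 after the start for 3 of the 4 genes, Cxcl2, Cxcl12 and Ccr2. The 120 bases before the start of Cxcl2 (GRCm38.p6, plus strand, chr5:90903779-90903898) are printed with a match to the NF-kappaB consensus in capitals, 97 to 88 bases upstream of the start, and the minus strand holds an overlapping match shifted by 1 base.
Cxcl2 promoter: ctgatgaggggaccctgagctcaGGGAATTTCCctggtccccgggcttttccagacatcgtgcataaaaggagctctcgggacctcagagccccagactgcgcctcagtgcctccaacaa

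Such a match occurred in 8.46% of 32851 mouse promoter windows of 300 bases, and neither the Cxcl12 nor the Ccr2 window held one. The AP-1 motif TGANTCA (7.81% of windows), the TATA box TATAAA (13.6%) and the core of the hypoxia element ACGTG (19.6%) were searched on both strands and had no match in any of the 3 windows. These letters are a description of the windows, and binding was not measured.

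Of a list of 38 chemokine ligands, the 3 described here are the ones with a named probe, and of 23 receptors Ccr2 alone. The study's list was held in part, so a gene without a named probe may still be on the full list. Of 118 genes of chemokine signaling downstream of the receptors, 7 have a named probe, all detected, and 2 were at least 2-fold higher and 5 at least 2-fold lower. They could be named because they are on the study's list of 2-fold differences, so these counts are no independent evidence of a direction. The median log2 ratio of the 7 was -1.19. It was 0.04 over all detected probes, but those were not selected by their ratio, so these medians are not comparable.

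Dpp4, a membrane peptidase that trims Cxcl12 and Ccl5, had a signal of 226 in control and 413 after surgery (log2 ratio 1.03, spot error 0.21). Rhoa, a GTPase that acts on the cytoskeleton of moving cells, had 18785 and 41539 (log2 ratio 1.06, spot error 0.20). Both were higher after surgery, as Ccl5 and the gamma probe of Cxcl12 were, but lay under 2-fold, at 0.92 each, with the nearby median subtracted.

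Ikbkb, the kinase that releases NF-kappaB, had signals of 351 and 86.5, the largest decrease of the 7, with a log2 ratio of -1.86 (spot error 0.21) and its spot in column 163. Prkacb, a catalytic subunit of protein kinase A, had signals of 266 and 94.7 (log2 ratio -1.33), and Gnb4, a beta subunit of the G proteins that chemokine receptors use, 247 and 90.4 (log2 ratio -1.29). Crk, an adaptor protein, had a log2 ratio of -1.19, and Prkx, a kinase related to protein kinase A, of -1.15. These 5 were lower in the surgery pool, like the alpha probe of Cxcl12.

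Markers of the cells that carry or make these molecules were read beside them, again only where the held part of the study's 2-fold list names a probe. Of 10 monocyte and macrophage markers, Ccr2 itself and Msr1, a scavenger receptor, could be read, and Msr1 had signals of 92.1 and 169 with a log2 ratio of 1.02 (spot error 0.21). Of 10 neutrophil markers Cd177 could be read, which passed the background limit in the control pool only, at 22.3 against 4.30. Its log2 spot error was 1.47, so nothing is read from it about neutrophils. Of 10 T cell markers, Slamf1 had a log2 ratio of 1.06 and Gimap4 of -1.21, both in the last 14 columns. None of the 8 microglia and 6 astrocyte markers has a named probe.

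Of 16 listed meningeal genes, 13 have a named probe. A probe is named only where the study lists it as 2-fold changed, so their size was fixed by the naming. The direction was higher in the surgery pool for all 13. This list was written with earlier results of these data known, so nothing is read from that count. The share at least 2-fold higher over all detected probes, which were not selected, was 1.47%. Their median log2 ratio was 1.28, and their summed normalized signal was 54371 in the control pool and 124355 in the surgery pool. Of the 13, 2 lay in the last 14 columns. Slc47a1, a transporter, had signals of 439 and 3977 (log2 ratio 3.29), and Dapl1 signals of 90.2 and 631 (log2 ratio 2.95). Their part in the values of Cxcl12, Cxcl2, Ccl5 and Ccr2 was not tested.

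Markers of the other cells of the region were few. The endothelial gene Sox7 had a log2 ratio of 1.32, in column 152, and the choroid plexus gene Clic6 of -1.38. Of the neuronal genes, Camk2a had a log2 ratio of 1.35 and Nsg2 of -1.19, while Tbr1 passed the background limit in the control pool only, at 28.9 against 4.01. Prox1, Neurod6 and Wfs1, which mark hippocampal neurons, have no named probe, so the tissue label was not checked against them. The oligodendrocyte gene Tspan2 had a log2 ratio of -0.99, on the same side as the alpha probe of Cxcl12.

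The named probes nearest to each member in log2 normalized signal over the 2 arrays were looked up among 432 others measured. This distance sets the levels of different probes side by side, which an array does not make comparable, and for Cxcl2 it includes a control spot not well above background, so it serves only to list them. They were Areg (distance 0.64) and H2-M10.3 (0.84) for Cxcl2, Ippk (0.07) and Col3a1 (0.22) for Ccl5, and Scaper (0.12) and Gm8765 (0.19) for Ccr2. For Cxcl12 they were Avil (0.06) and Dag1 (0.08) beside the gamma probe, and Prkx (0.07) and Rap1gds1 (0.08) beside the alpha probe.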

How the data were processed

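Total RNA of 3 hippocampi per group was pooled, amplified with random primers, labelled with Cy3 and hybridized to 1 Arraystar array per group, and groups were taken from the treatment labels. The authors deposited the spot intensity output of Agilent Feature Extraction (version 11.0.1.1, per the submitters' processing notes), background-corrected within each array and not normalized between arrays. The authors also deposited a table of log2 values after quantile normalization in GeneSpring GX, used as an alternative. It matched 61404 spots, correlated with the log2 processed signals at r = 0.981 (control) and 0.986 (surgery) across spots, and has a median of 4.78, and its offset from the scanner values is not explained in the sources used here. No column of other samples was found.

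Log2 processed signals of 61500 spots were quantile normalized here between the arrays, and spots of repeated probes were averaged. Spots marked non-uniform or outlying were left out. Such spots belonged to 80 probes, of which 50 were lost and the rest kept on their other spots. Of the spots, 76.4% (control) and 73.8% (surgery) were well above background, with median signals of 98.8 and 89.7. The median log2 ratio of detected probes was 0.04, and -0.07 without normalization. Over 15 repeated probes with at least 10 spots each, the median SD of the log2 ratio between spots was 0.05. The error of a log2 ratio combines the relative spot errors of its pair of spots. For a probe that was not called detected, the measured signals were given, and no bound on the fold was given.

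The mean pixel signal is not among the columns used here. Normexp (offset 50, limma 3.58.1 in R 4.3.3) was therefore run on the median pixel. The subtracted background was estimated as a running median over the spots within 5 rows and 2 columns on either side. Alternatives covered normalization, background, spot summary, marked spots, dim probes and position, and the local background was added after the data were seen. The study's methods name a t-test and describe a repeat of the array assay. The arrays used here are 1 per group, so the t-test was not run, and the study's qRT-PCR was not analysed here. Python 3.11.15, numpy 2.4.6, pandas 2.3.3 and matplotlib 3.10.9 were used. Simulated data recovered 100% of 200 changed spots among 61500. Those spots lay above the median signal, were changed past 2-fold and had noise below the real spot errors. The simulation therefore checks the code only, not the calls for dim spots or spots at the edge.

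Gene names and probe sequences came from the study's supplementary mRNA list, held in part, and gene positions, promoter windows and transcripts from RefSeq GRCm38.p6. The genes named are the members, every gene of the chemokine, signaling and marker lists with a named probe, and the 2 nearest probes of each member, except that some marker genes are not reported here. Members and lists were chosen with earlier results of these data known.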

Additional observations from a re-analysis of the deposited data

How the results depend on the processing

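Of 92 recomputed values, 64 stayed within the spot error or within 1.5 times the count, 28 moved and none changed direction. With normexp (offset 50, which compresses dim signals by its construction) the log2 ratios were 2.01 for Cxcl2, 0.87 for Ccl5, 0.38 for Ccr2, 0.81 and -0.85 for the Cxcl12 probes of NM_001012477 and NM_021704, and 1.67 for the difference between them. With the median pixel over the local background they were 2.76 for Cxcl2, 0.61 for Ccr2, -1.01 for the NM_021704 probe and 1.96 for the Cxcl12 difference. With the median pixel over the estimated background Ccr2 was 1.11. In the authors' table Cxcl2 was 3.38 and Ccr2 1.58. For these last settings the cause was not tested.

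The members at least 2-fold higher were 3 as reported, 1 without normalization (Ccr2, with Ccl5 at 0.93 and Cxcl12 at 0.91), 0 with the local background and 0 with normexp. The members at least 2-fold lower were 1 as reported, and 0 with normexp and with the dimmer detected probes (below the median signal) left out, by which Ccr2 and the NM_021704 probe of Cxcl12 drop from the count. Over all detected probes, 647 were higher and 858 lower. The higher count was 320 without the last 14 columns, 130 without the dimmer probes, 295 with the local background, 176 with normexp and 2384 with no filter on dim probes. The lower count was 285 without the dimmer probes, 356 with the local background, 191 with normexp, 1483 without normalization and 2748 with no filter.

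No paired analysis was possible because there is 1 array in each group, and for the same reason leaving out a replicate was not run. The Cxcl2 spot on the control array was not well above background, which leaves its fold uncertain. Its normalized signal was 16.4, above the lowest normalized signal of a spot well above background, 15.7, so no bound is given. Spot errors cover the reading of 1 spot only.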
